A study of Mus musculus with 18 samples.

Results

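The 38 genes described here encode proteins of G2 and mitosis: A and B cyclins with Cdk1 and its Cdc25 phosphatases, mitotic kinases with the chromosomal passengers, and the spindle checkpoint. Further members act at the centromere and kinetochore, as spindle motors, on spindle microtubules, with the anaphase-promoting complex, in cytokinesis and in chromosome structure. They were taken by gene name, and each name matched 1 of 54532 genes in the deposited table. All 38 passed the filter on low values, a mean of at least 1 FPKM (fragments scaled by gene length and library depth) over all libraries, which left 11084 genes for testing.

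RNA was taken from KPCA.B, a mouse line labelled as high grade serous ovarian cancer, cultured in medium taken from other cells and diluted 1:1 with new DMEM rich in glucose, which held 4% serum, 2 ng/mL EGF and the supplement ITS-G. The conditioned medium came from proliferating cells treated with the solvent DMF (PCM) or from cells made senescent with cisplatin, a platinum drug that crosslinks DNA (SCM). The cells carried a control hairpin with wild type Ndufa5 (shControl) or 1 of 2 hairpins labelled as Ndufa5 knockdown 1 and 2 (shNdufa5_1, shNdufa5_2), in 6 groups of 3 libraries. The study asked how secreted factors of senescent cells change transcription in bystander cells and what Ndufa5, an accessory subunit of respiratory complex I, contributes. It is not stated whether each hairpin line was a clone or a pool, or whether a group's 3 libraries were grown as separate cultures. The p-values below therefore measure only the spread between these libraries, which may be technical.

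Entry into mitosis is driven by Cdk1 bound to cyclin A or B, which Wee1 and Pkmyt1 hold back and Cdc25 phosphatases release. Polo and Aurora kinases then build the spindle and correct its attachments, the checkpoint delays anaphase until kinetochores are attached, and the anaphase-promoting complex with Cdc20 destroys securin and cyclin B. Most of these genes are transcribed late in the cell cycle through the MuvB complex with B-Myb and FoxM1, so in a culture their RNA reflects how many cells are in G2 and mitosis as well as how much each such cell makes. In bulk RNA a change in the share of cells and a change in RNA per cell cannot be told apart.

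Because these genes share a known promoter design, the stretches just upstream of the start sites of 6 members are shown, 4 that were among the larger rises in SCM and hold a match, and 2 that hold none there. Each is 150 bases long, read 5′ to 3′ on the gene's strand from RefSeq in GRCm38.p6, and ends at the last base before the annotated start. Capitals mark CCAAT, the letters bound by NF-Y, and TTTGAA or TTCGAA, the core of the cell cycle genes homology region (CHR) bound by MuvB, on either strand (ATTGG and TTCAAA on the other strand, while TTCGAA reads the same on both).
Ccnb2, chr9:70421555-70421704, minus strand: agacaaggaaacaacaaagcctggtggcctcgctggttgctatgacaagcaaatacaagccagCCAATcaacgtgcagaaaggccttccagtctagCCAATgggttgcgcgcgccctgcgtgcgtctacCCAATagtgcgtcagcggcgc
Cdc20, chr4:118437344-118437493, minus strand: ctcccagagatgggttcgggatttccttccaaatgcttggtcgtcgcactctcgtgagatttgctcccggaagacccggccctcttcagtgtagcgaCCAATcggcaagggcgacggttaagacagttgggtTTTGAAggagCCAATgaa
Ube2c, chr2:164769779-164769928, plus strand: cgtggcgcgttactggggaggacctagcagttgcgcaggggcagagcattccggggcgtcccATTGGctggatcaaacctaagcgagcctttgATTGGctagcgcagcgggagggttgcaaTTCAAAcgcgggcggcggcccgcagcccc
Plk1, chr7:122159285-122159434, plus strand: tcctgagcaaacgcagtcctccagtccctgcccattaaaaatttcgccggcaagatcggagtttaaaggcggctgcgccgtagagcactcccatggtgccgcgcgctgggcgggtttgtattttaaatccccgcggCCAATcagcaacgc
Birc5, chr11:117849087-117849236, plus strand: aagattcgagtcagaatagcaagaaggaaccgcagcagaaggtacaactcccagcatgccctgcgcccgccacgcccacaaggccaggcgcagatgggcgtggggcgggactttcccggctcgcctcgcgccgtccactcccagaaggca
Nuf2, chr1:169531465-169531614, minus strand: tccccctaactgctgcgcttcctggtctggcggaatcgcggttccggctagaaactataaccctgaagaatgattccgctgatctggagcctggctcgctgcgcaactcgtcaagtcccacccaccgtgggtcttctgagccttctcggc

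RefSeq promoter windows of 300 bases, 250 before and 50 after the start, were matched for 32 of the 38 members, and Aurkb, Ccna2, Cdc25c, Incenp, Kif20a and Tpx2 had none. A CHR match lay in the window of 25 of the 32 members (78.1%), against 21.7% of all 27025 genes in the table and 19.2% of its 32851 promoters. CCAAT lay in the window of 24 members (75%), against 41.1% of all genes and 37.4% of promoters. Both motifs were found for 22 members (68.8%, against 9.65% of genes). For a gene with several windows each motif was counted in any of them, so the motifs need not share a window. Of single promoters 7.52% held both. At least 2 CCAAT matches were found in 17 members (53.1%), with 6 each in Top2a and Ube2c, against 13.3% of genes. Members called higher in SCM held a CHR match in 16 of 20 cases and those called lower in 5 of 6. A match is a run of letters and was not tested as a binding site.

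Libraries held 13.8 to 38.9 M fragments, and within each group the library pairs had a Pearson r between 0.979 and 0.990 over tested genes. Ndufa5 had 34.6% of its shControl level with shNdufa5_1 in PCM and 28.0% in SCM, but 93.4% and 73.4% in the libraries labelled shNdufa5_2, so each direction drawn from the latter carries that limit. Of 10 markers of epithelium and ovarian carcinoma 6 had a mean above 1 FPKM, while Wt1 and Muc16 were at 0 in all libraries. Markers of other cell types were low, with Thy1, Cd3e, Itgam and Emcn at 0 throughout. Cd68, a macrophage marker, was at 2.01 to 2.20 FPKM in shControl in PCM and 5.92 to 6.96 in SCM. In the libraries labelled shNdufa5_2 it was 6.13 to 8.70 and 7.49 to 10.2, and with shNdufa5_1 0.751 to 2.17 and 0.985 to 2.10. The epithelial sum was 1050 to 1120 FPKM in shControl in PCM, 1620 to 1730 in SCM and 1690 to 1740 with shNdufa5_1 in PCM. The part of these differences in the results was not tested.

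Levels of the members, which FPKM makes comparable between genes, ran from a mean over all 18 libraries, in 6 groups that differ, of 3.74 FPKM for the checkpoint kinase gene Ttk to 92.8 for Ube2c, the ubiquitin-conjugating enzyme of the anaphase-promoting complex. After Ube2c came Aurka (67.3), Cdc20 (65.4) and Tpx2 (61.0), and just above Ttk came Cenpf (3.89), Nuf2 (5.21), Ndc80 (5.57) and Pttg1 (5.91). This order is of means over the groups and changes within them: in shControl in PCM Cenpf (2.36) lay below Ttk (3.67). Pttg1, which encodes securin, rested on the fewest fragments, 113 in its shallowest library. The map of the 38 genes by library shows that replicates of a group resembled each other and that genes of a single role did not all move together.

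**Figure D1:**
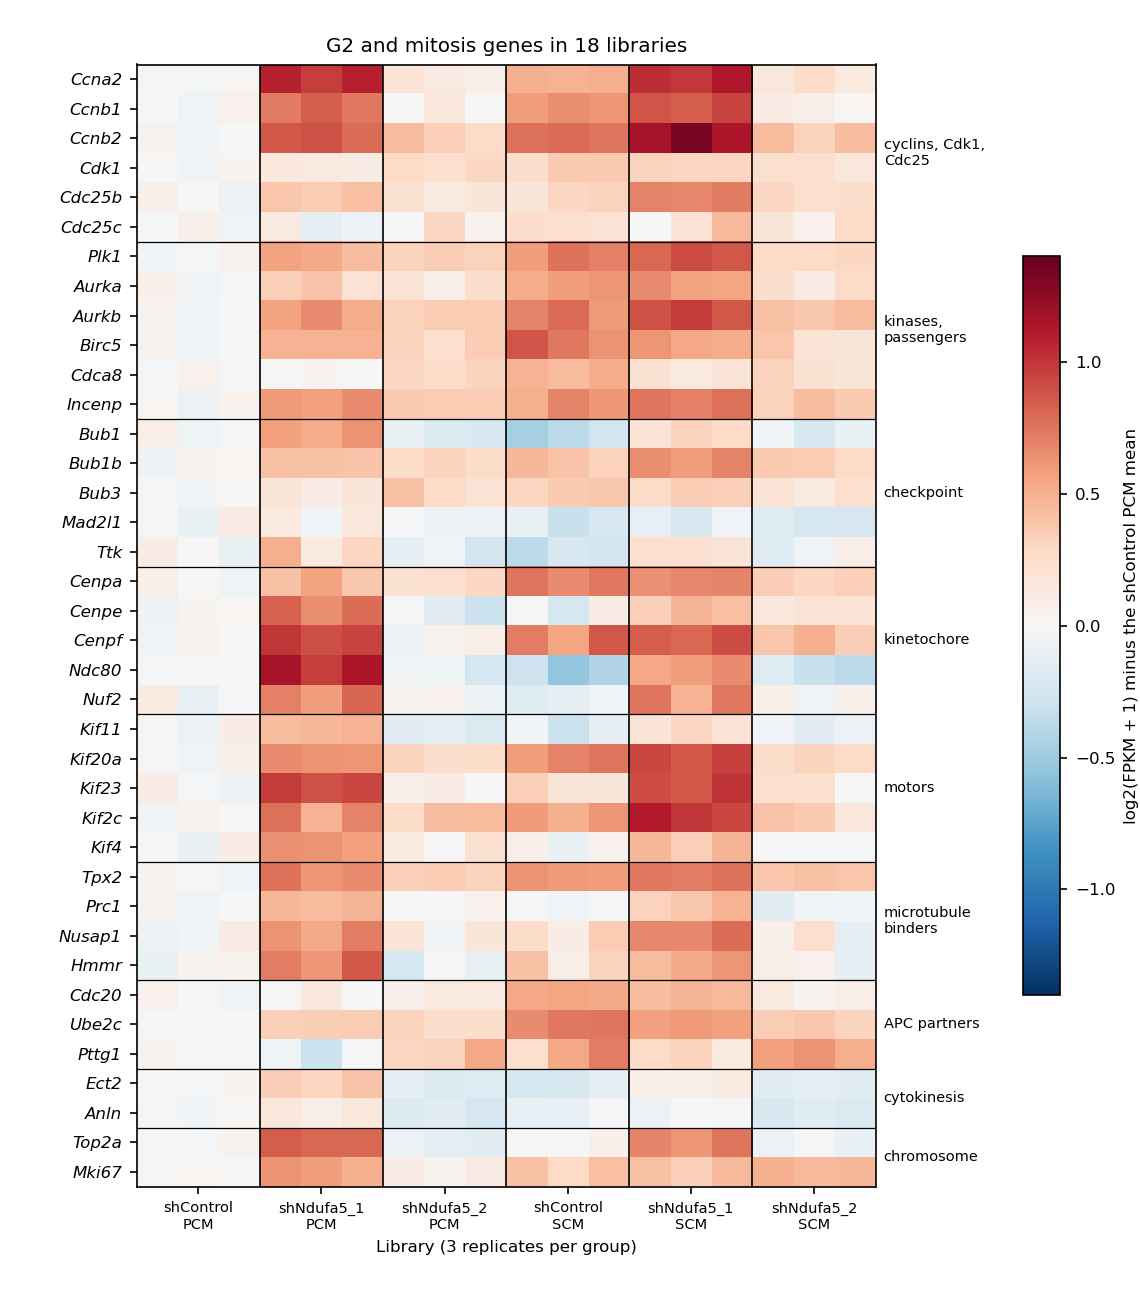
Each column is a library, in 6 groups of 3, and each row a gene, ordered by role; colour is log2(FPKM + 1) minus the mean of shControl in PCM, as deposited. The shNdufa5_1 columns are the reddest in both media, with Ndc80, Ccna2, Cenpf and Kif23 high in PCM, and Bub1 and Ndc80 turn blue in shControl in SCM; under scaling by FPKM totals the differences of shControl in SCM fall, with 1 member higher and 20 lower.

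The first comparison was that of SCM with PCM in shControl cells. Most of the 38 genes were higher in SCM, led by B cyclins, Aurora and Polo kinases, chromosomal passengers and the anaphase-promoting complex group. A smaller group, which held Ndc80 and 3 checkpoint genes, was lower. By limma with Benjamini-Hochberg adjustment over all genes, 25 members rose, 6 fell and 7 did not pass, with a median log2 difference of 0.36. Over all genes 31.7% were called higher and 30.2% lower, 61.9% in all, with a median of 0.00. These counts are for values as deposited, which hold the median gene constant; scaling by FPKM totals lowered the median of all genes by 0.50 and gave 1 member higher and 20 lower (median -0.22), while scaling by fragment totals, added after the data were seen, lowered it by 0.20 and gave 19 and 12 (0.12). The members' median stood above that of all genes by 0.28 and 0.32 under these scalings. FPKM totals depend on Gm23935, a feature of 57 bp that made up 5.13 to 8.75% of the total in shControl in PCM and 16.3 to 21.8% in SCM.

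All 3 cyclins rose, with a median of 0.62, or 0.03 under scaling by FPKM totals. Ccnb2, for cyclin B2, stood at 37.7, 35.5 and 36.3 FPKM in PCM and at 62.8, 63.8 and 62.0 in SCM, a log2 difference of 0.77 ± 0.05 (SE, limma adjusted p = 7.75e-09). Every SCM library was well above every PCM library. Ccnb1, for cyclin B1, had 24.0, 23.1 and 25.2 FPKM in PCM and 36.6, 38.4 and 37.5 in SCM (0.62 ± 0.05). Ccna2, for cyclin A2, rose from 23.1 ± 0.448 to 33.0 ± 0.313 FPKM (SD, n = 3 each; 0.50 ± 0.04). Their partner kinase gene Cdk1 rose by less, from 25.3 ± 0.759 to 31.9 ± 1.60 (0.32 ± 0.04). Of the phosphatases that activate it, Cdc25b rose by 0.26 ± 0.04, and Cdc25c, at 0.23 ± 0.10, did not pass (adjusted p = 0.0603).

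The mitotic kinases and chromosomal passengers rose in 6 of 6 cases, with a median of 0.64, or 0.05 under scaling by FPKM totals. Birc5 encodes survivin, which brings Aurora B to the centromere. Its libraries held 9.60, 8.86 and 9.28 FPKM in PCM and 17.8, 16.1 and 14.8 in SCM, a difference of 0.75 ± 0.07 (adjusted p = 9.58e-08). The groups did not overlap, though the SCM libraries spread more widely. Aurkb, the kinase of that complex, rose by 0.70 ± 0.05, Incenp, its scaffold, by 0.60 ± 0.05, and Cdca8, for borealin, by 0.48 ± 0.04. Plk1, the polo kinase, rose from 32.1 ± 1.22 to 52.2 ± 3.20 FPKM (0.68 ± 0.05), and Aurka, the centrosomal Aurora kinase, from 53.6 ± 2.54 to 80.1 ± 2.98 (0.57 ± 0.06).

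The spindle checkpoint divided as deposited, while under scaling by FPKM totals all 5 of its genes fell. Bub1b, for the checkpoint protein BubR1, rose from 30.5, 33.1 and 32.7 FPKM to 44.8, 42.7 and 40.3 (0.40 ± 0.04, adjusted p = 1.24e-06), although under scaling by FPKM totals its difference was -0.19. Bub3, its binding partner, rose by 0.35 ± 0.05. The other 3 genes fell. Bub1, a kinetochore kinase of the checkpoint, went from 14.6, 13.0 and 13.3 FPKM to 9.60, 10.3 and 11.1 (-0.37 ± 0.06, adjusted p = 7.94e-05), with no overlap between media. Ttk, for the checkpoint kinase Mps1, changed by -0.29 ± 0.09 and Mad2l1, for the anaphase inhibitor Mad2, by -0.21 ± 0.07. With the GC and length trend removed, as fitted in each library, these 3 differences were 0.01, 0.04 and 0.20.

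Centromere and kinetochore genes moved in both directions as deposited, and had a median of -0.60 under scaling by FPKM totals. Cenpa, the histone H3 variant that marks centromeres, had 17.4, 16.4 and 15.8 FPKM in PCM and 28.5, 26.8 and 28.2 in SCM (0.72 ± 0.05, adjusted p = 4.62e-09). Cenpf, a large protein of the outer kinetochore, had 2.21, 2.49 and 2.38 FPKM in PCM and 4.53, 3.91 and 5.14 in SCM (0.71 ± 0.08). Both were higher in every SCM library. Ndc80, the microtubule-binding subunit that gives its complex its name, fell from 4.47, 4.56 and 4.54 FPKM to 3.51, 2.77 and 3.12 (-0.42 ± 0.08, adjusted p = 0.000246). Its partner Nuf2 (-0.12 ± 0.08) and the kinetochore motor Cenpe (-0.06 ± 0.08) did not pass. The fall of Ndc80 was not called with the GC and length trend removed (-0.08, adjusted p = 0.391).

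The 5 spindle motors had a median of 0.22, or -0.32 under scaling by FPKM totals. Kif20a, a midzone kinesin needed for cytokinesis, went from 10.8, 10.5 and 11.5 FPKM to 16.9, 18.3 and 19.0 (0.68 ± 0.05, adjusted p = 6.67e-09). Kif2c, a microtubule depolymerase at centromeres, rose by 0.57 ± 0.08 and Kif23, of the centralspindlin complex, by 0.22 ± 0.07. Kif11, the kinesin that pushes spindle poles apart, fell by 0.16 ± 0.06 on the log2 scale with overlapping groups, and was 0.24 higher with the GC and length trend removed. Kif4, a chromosome-bound kinesin, did not change detectably (0.01, 95% interval -0.13 to 0.16). Among microtubule binders Tpx2, the activator of Aurora A, rose from 43.5 ± 1.38 to 66.5 ± 0.973 FPKM (0.60 ± 0.03), Hmmr by 0.28 ± 0.09 and Nusap1 by 0.24 ± 0.09, while the midzone crosslinker Prc1 gave -0.03.

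The 3 genes grouped with the anaphase-promoting complex, which encode its enzyme Ube2c, its activator Cdc20 and its substrate securin (Pttg1), rose as deposited, with a median of -0.02 under scaling by FPKM totals. Ube2c went from 69.1, 71.2 and 70.9 FPKM to 112, 118 and 119 (0.72 ± 0.03, adjusted p = 2.5e-11), which separated the media widely. Cdc20, the activator of the anaphase-promoting complex, rose from 55.8 ± 2.32 to 81.6 ± 0.791 FPKM (0.54 ± 0.04) and Pttg1 by 0.50 ± 0.11. The 2 cytokinesis genes did not follow. Ect2, the exchange factor that activates RhoA at the furrow, fell from 31.0 ± 0.780 to 26.7 ± 1.09 FPKM (-0.21 ± 0.04), but was 0.18 higher with the GC and length trend removed, and Anln, for the furrow protein anillin, gave -0.09 (adjusted p = 0.0518). Mki67, the Ki-67 proliferation marker that coats mitotic chromosomes, rose from 12.6, 13.2 and 12.9 FPKM to 17.4, 15.8 and 17.6 (0.37 ± 0.05), with -0.21 under scaling by FPKM totals. Top2a, the topoisomerase that untangles chromosomes, gave 0.03 ± 0.04.

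The next question was whether cells with a hairpin against Ndufa5 made the same response to SCM. With shNdufa5_1, 16 members rose, 10 fell and 12 did not pass, with a median of 0.08, against 22.5% of all genes higher, 19.8% lower, 42.3% in all and a median of 0.02. With FPKM totals as the scale 7 rose and 5 fell. The largest rises were in Cdc20 (0.40 ± 0.04, from 58.0 ± 3.26 FPKM to 75.7, 78.1 and 77.0), Pttg1 (0.37 ± 0.11) and Kif2c (0.36 ± 0.08). The largest falls were in Ndc80 (-0.49 ± 0.08, from 10.8 ± 0.858 to 7.34 ± 0.355 FPKM), Cenpe (-0.35 ± 0.08) and Bub1 (-0.31 ± 0.06). Once the GC and length trend was removed, Cenpe (-0.13, adjusted p = 0.240) and Bub1 (-0.02, adjusted p = 0.868) were not called, and 21 members were higher and 1 lower, where 15.6% of all genes were higher and 12.6% lower, 28.2% in all. Birc5, which was among the larger rises in shControl, gave 0.07 ± 0.07, and Ccna2 gave 0.01 ± 0.04.

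In the libraries labelled shNdufa5_2, 3 members rose and 35 did not pass, with a median of 0.04, where 11.7% of all genes were called higher and 11.1% lower, 22.8% in all. None fell by limma, and 2 were lower at an unadjusted p under 0.05. The 3 were Cenpf, Mki67 and Cenpe. Cenpf had 2.18, 2.51 and 2.56 FPKM in PCM and 3.39, 3.74 and 3.27 in SCM (0.39 ± 0.08, adjusted p = 0.00244). Mki67 went from 13.8 ± 0.324 to 18.3 ± 0.297 FPKM (0.38 ± 0.05, adjusted p = 5.63e-05), and Cenpe 8.52, 7.61 and 6.83 and then 9.66, 10.0 and 9.95 (0.33 ± 0.08). None of the 3 overlapped between media. Of the members that did not pass, Ccnb2 stood at 46.6 ± 2.73 and 48.6 ± 2.21 FPKM and Plk1 at 40.5 ± 0.401 and 39.3 ± 0.175. Birc5 was at 11.8, 11.1 and 12.1 and then 12.4, 10.7 and 10.5.

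**Figure D2:**
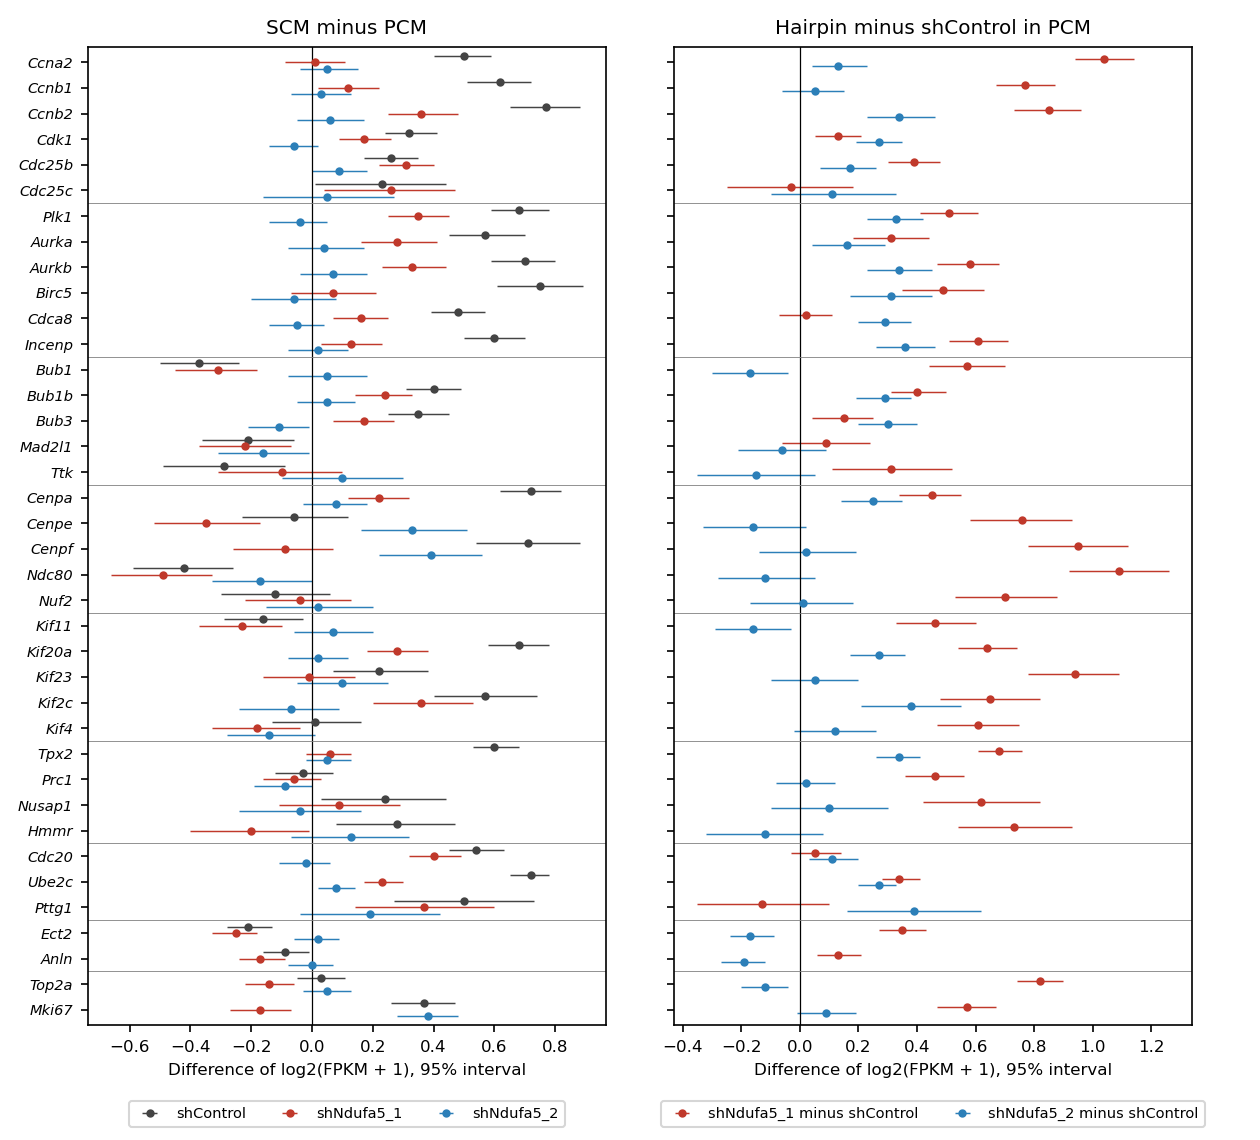
Each row is a gene, with the log2(FPKM + 1) difference and its 95% interval, for SCM minus PCM in each genotype (left) and for each hairpin minus shControl in PCM (right), as deposited. On the left the grey points of shControl lie to the right for 25 called genes, while the blue points of the libraries labelled shNdufa5_2 cluster near 0 except Cenpf, Mki67 and Cenpe; on the right the red points of shNdufa5_1 are called higher for 33 genes. Under scaling by FPKM totals the shControl response has 1 gene higher and 20 lower, and the comparison of the libraries labelled shNdufa5_2 with shControl 0 and 17.

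The hairpins were then compared with shControl within PCM. With shNdufa5_1, members of every role rose under the deposited scaling, with Ndc80, Ccna2, Cenpf and Kif23 at the top and the 3 genes of the anaphase-promoting complex group lower in the order, which had a median of -0.07 under scaling by FPKM totals. Of the 38 genes 33 rose and 5 did not pass, with a median of 0.54, against 25.6% of all genes higher, 27.1% lower, 52.7% in all and a median of -0.01. None fell by limma, nor at an unadjusted p under 0.05. The same 33 members, and no others, had no overlap between the shNdufa5_1 and shControl libraries. Overlap was counted for members only, without a share of all genes, so it adds no support beyond the calls. Scaling by FPKM totals gave 28 higher. With the GC and length trend removed 31 were higher and none lower by limma or at an unadjusted p under 0.05, where 24.4% of all genes were higher and 26.9% lower, 51.2% in all.

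Ndc80 led, with 4.47, 4.56 and 4.54 FPKM in shControl and 11.3, 9.78 and 11.2 with shNdufa5_1 (1.09 ± 0.08, adjusted p = 2e-08). Ccna2 had 23.4, 22.6 and 23.3 FPKM in shControl and 49.7, 46.0 and 50.1 with the hairpin (1.04 ± 0.04, adjusted p = 7.41e-11). Cenpf had 2.21, 2.49 and 2.38 against 5.71, 5.28 and 5.46 (0.95 ± 0.08). Each shNdufa5_1 library lay far above every shControl library for these genes. Kif23 rose from 7.11 ± 0.541 to 14.5 ± 0.520 FPKM (0.94 ± 0.07), Top2a from 33.5 ± 1.06 to 59.8 ± 0.889 (0.82 ± 0.04) and Nuf2 from 4.20 ± 0.407 to 7.47 ± 0.682 (0.70 ± 0.08). At the low end Cdk1 rose by 0.13 ± 0.04 and Anln by 0.13 ± 0.04. The 5 that did not pass were Mad2l1 (0.09), Cdc20 (0.05), Cdca8 (0.02), Cdc25c (-0.03) and Pttg1 (-0.13).

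The libraries labelled shNdufa5_2 differed less from shControl in PCM. There 19 members rose, 4 fell and 15 did not pass, with a median of 0.12. Of all genes 19.3% were higher and 16.3% lower, 35.6% in all, with a median of 0.01. Scaling by FPKM totals gave 17 members lower, with a median of -0.22. It also gave 6315 of all 11084 genes lower and 139 higher. Relative to all genes the members' median was then 0.08. The mitotic kinases and passengers rose in 6 of 6 cases, or had a median of -0.02 under scaling by FPKM totals, with Incenp from 35.2 ± 1.76 to 45.4 ± 0.179 FPKM (0.36 ± 0.05). Kif2c rose from 8.28 ± 0.319 to 11.1 ± 0.835 (0.38 ± 0.08) and Pttg1 from 4.66 ± 0.149 to 6.41 ± 0.689 (0.39 ± 0.11). Anln (-0.19 ± 0.04), Bub1 (-0.17 ± 0.06), Ect2 (-0.17 ± 0.04) and Top2a (-0.12 ± 0.04) fell. With the GC and length trend removed Anln, Bub1 and Ect2 were at 0.03, 0.05 and 0.05, and 23 members were called higher, where 15.4% of all genes were higher and 10.1% lower, 25.4% in all. None was then lower by limma, nor at an unadjusted p under 0.05.

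Within SCM each hairpin was compared with shControl. With shNdufa5_1, 24 members rose, 3 fell and 11 did not pass, with a median of 0.24, where 28.7% of all genes were higher and 31.1% lower, 59.8% in all, and the scalings by FPKM and by fragment totals gave 35 and 33 higher. Ndc80 had 3.51, 2.77 and 3.12 FPKM in shControl and 7.02, 7.28 and 7.72 with the hairpin (1.02 ± 0.08, adjusted p = 2.28e-08). Nuf2 had 3.60, 3.75 and 4.01 against 7.73, 6.29 and 7.69 (0.78 ± 0.08), and Kif23 rose by 0.70 ± 0.07. These 3 genes were thus higher with shNdufa5_1 in both media and without overlap. The 3 that fell were Cdca8 (-0.30 ± 0.04), Birc5 (-0.19 ± 0.07) and Ube2c (-0.14 ± 0.03), which were 0.10, 0.21 and 0.28 higher under scaling by FPKM totals. Ube2c was 0.18 higher under quantile normalization and 0.06 higher with the GC and length trend removed, which gave 20 members higher and 7 lower, against 23.5% and 31.5% of all genes, 55.0% in all.

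In the libraries labelled shNdufa5_2 in SCM, 20 members fell, 2 rose and 16 did not pass, with a median of -0.14. Of all genes 20.0% were lower and 13.9% higher, 33.9% in all. Under scaling by FPKM totals the members' direction turned, with 12 higher, 1 lower and a median of 0.14. That scaling also gave 4753 of all 11084 genes higher and 184 lower, with a median of 0.23. Relative to all genes the members' median was then -0.09. Ccnb1 had 36.6, 38.4 and 37.5 FPKM in shControl and 26.2, 25.8 and 24.5 here (-0.54 ± 0.05, adjusted p = 1.41e-06). Birc5 had 17.8, 16.1 and 14.8 against 12.4, 10.7 and 10.5 (-0.50 ± 0.07) and Cdc20 81.6 ± 0.791 against 59.5 ± 1.92 (-0.45 ± 0.04). No library of one group reached the other for these genes. The 2 that rose were Bub1 (0.25 ± 0.06) and Cenpe (0.23 ± 0.08), and with the GC and length trend removed 26 fell, where 16.1% of all genes fell and 7.86% rose, 23.9% in all. None then rose by limma, nor at an unadjusted p under 0.05. Comparisons with shControl in the same medium share the shControl libraries, so the values of the hairpins are set side by side and not correlated.

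**Figure D3:**
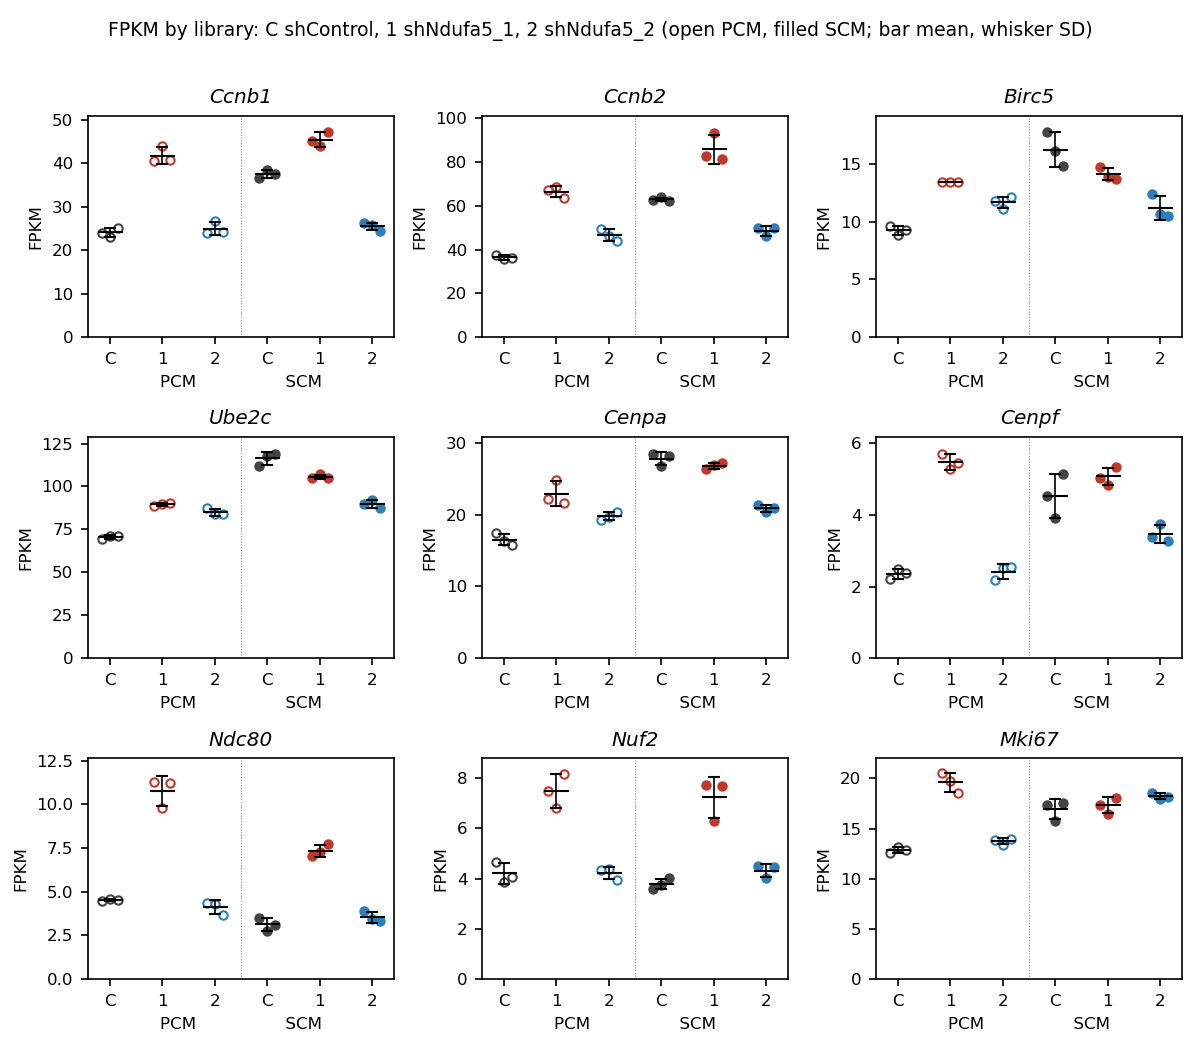
FPKM of 9 members in each of 18 libraries, with open points for PCM and filled points for SCM, C for shControl, 1 for shNdufa5_1 and 2 for the libraries labelled shNdufa5_2; the bar is the mean and the whisker the SD of 3 libraries. Ccnb1, Ccnb2 and Ube2c are higher in SCM than in PCM in shControl and within 0.08 of each other in the libraries labelled shNdufa5_2 on the log2 scale, Ndc80 and Nuf2 are high with shNdufa5_1 in both media, and Mki67 is higher in SCM in shControl and in the libraries labelled shNdufa5_2; under scaling by FPKM totals the shControl difference of Mki67 is -0.21.

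Whether the hairpins altered the response to SCM was tested directly, as the difference of each hairpin's SCM response from that of shControl. For the mean of both hairpins 21 members were lower, 1 was higher and 16 did not pass, with a median of -0.26, where 21.5% of all genes were lower and 17.2% higher, 38.6% in all, with a median of 0.00; scaling by FPKM totals, which raised the median of all genes by 0.50, gave 20 higher. Relative to all genes the members' median difference was -0.20 under that scaling. Birc5 had the largest difference (-0.74 ± 0.08, adjusted p = 3.54e-06), followed by Cenpa (-0.57 ± 0.06) and Cenpf (-0.57 ± 0.10). Under scaling by FPKM totals Birc5 (-0.19), Cenpa (0.01) and Cenpf (-0.11) were not called. Bub1 was the member with a higher response (0.24 ± 0.08, adjusted p = 0.0195), which was 0.01 and not called with the GC and length trend removed. That correction gave 29 lower, where 19.0% of all genes were lower and 8.86% higher, 27.8% in all, and none higher by limma or at an unadjusted p under 0.05.

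For shNdufa5_1 alone, 17 members had a lower response and 21 did not pass (median -0.20), with 15.5% of all genes lower and 10.7% higher, 26.2% in all. None was higher by limma, nor at an unadjusted p under 0.05. Under scaling by FPKM totals 16 members were higher and 1 lower, against 6988 and 85 of all 11084 genes. Relative to all genes the members' median was then -0.17. The GC and length correction gave 26 lower, against 16.3% of all genes lower and 8.10% higher, 24.4% in all. Cenpf (-0.81 ± 0.11), Birc5 (-0.68 ± 0.09) and Tpx2 (-0.54 ± 0.05) led, of which Birc5 (-0.17) and Tpx2 (0.00) were not called under scaling by FPKM totals. For the libraries labelled shNdufa5_2, 20 were lower, 5 higher and 13 did not pass (median -0.32), with 24.1% of all genes lower and 18.9% higher, 43.0% in all. Under scaling by FPKM totals 17 members were higher, against 7337 of all 11084 genes. Relative to all genes the members' median was then -0.26. The GC and length correction gave 29 lower, against 25.9% of all genes called, of which the higher made up 7.91% of all genes. Birc5 (-0.81 ± 0.09), Plk1 (-0.73 ± 0.06) and Ccnb2 (-0.71 ± 0.08) led, and Bub1 (0.42 ± 0.09), Ttk (0.39 ± 0.13) and Cenpe (0.39 ± 0.12) were higher. Those 3 were not called with the GC and length trend removed (0.04, 0.11 and 0.04, adjusted p = 0.769, 0.585 and 0.840). Under scaling by FPKM totals Birc5 (-0.20), Plk1 (-0.09) and Ccnb2 (-0.07) were not called either. These comparisons use the same shControl libraries. The hairpins' own responses, which share none, differed for 21 members: 9 were higher and 12 lower in the libraries labelled shNdufa5_2, with 11.0% and 10.0% of all genes, 21.0% in all. Cenpe (0.68 ± 0.12), Mki67 (0.55 ± 0.07) and Cenpf (0.48 ± 0.11) stood at one end and Kif2c (-0.44 ± 0.11), Cdc20 (-0.43 ± 0.06) and Plk1 (-0.39 ± 0.06) at the other, and with the GC and length trend removed 2 were higher and 5 lower, against 5.39% and 5.32% of all genes, 10.7% in all. Cenpf (0.18, adjusted p = 0.303) and Kif2c (-0.34, adjusted p = 0.0556) were then not called. Scaling by FPKM totals gave 4 higher and 1 lower, with Plk1 (-0.30, adjusted p = 0.0797) and Kif2c (-0.35, adjusted p = 0.242) not called.

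The 4 classes of cyclins, kinases, kinetochore genes and motors are set side by side here. The 3 cyclins rose in SCM in shControl (median 0.62), rose with shNdufa5_1 in PCM (0.85) and fell in the libraries labelled shNdufa5_2 in SCM (-0.37), and their response to SCM was lower with the hairpins (-0.54). Of 7 kinases (Cdk1, Plk1, Aurka, Aurkb, Bub1, Bub1b and Ttk), 5 rose and 2 fell in SCM in shControl (median 0.40), all 7 rose with shNdufa5_1 in PCM (0.40) and 5 responded less with the hairpins (-0.27). Kinetochore genes, 2 of 5 higher and 1 lower in SCM in shControl (median -0.06), rose in 5 of 5 cases with shNdufa5_1 in PCM (0.76), and 2 responded less with the hairpins (0.05). Of 5 motors, 3 rose and 1 fell in SCM in shControl (0.22), all rose with shNdufa5_1 in PCM (0.64) and in SCM (0.41), and 2 responded less with the hairpins (-0.18). Of all genes 31.7% were higher and 30.2% lower in SCM in shControl, and 25.6% and 27.1% with shNdufa5_1 in PCM. Within SCM 28.7% were higher with shNdufa5_1 and 20.0% lower in the libraries labelled shNdufa5_2. The response of the mean of both hairpins was lower for 21.5%. Differences between classes were not tested, and their members are few. Under scaling by FPKM totals the medians for SCM in shControl were 0.03 for cyclins, -0.19 for kinases, -0.60 for kinetochore genes and -0.32 for motors, and for the response with the hairpins 0.04, 0.31, 0.56 and 0.35. For shNdufa5_1 in PCM they were 0.72, 0.28, 0.65 and 0.52. Removing the GC and length trend gave medians for SCM in shControl of 0.69, 0.45, 0.30 and 0.50. Then 3, 5, 4 and 5 genes were higher, against 29.3% of all genes.

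The division within the members went in part with the base composition of their transcripts. Across the 38 genes the SCM difference in shControl had a Spearman correlation of 0.73 with GC content, against 0.55 over 11074 genes, and of -0.54 with length, against -0.32. Genes are not independent, and these values are descriptions of the same libraries. Bub1 (40.6% GC), Mad2l1 (41.2%), Ect2 (41.3%) and Kif11 (41.8%), the most AT-rich members, all fell as deposited, while Plk1 (56.1%), Cdc20 (54.8%), Incenp (54.6%), Ube2c and Cdc25b (54.2% each) all rose. Of members nearly as AT-rich, Hmmr (42.2%), Nusap1 (43.0%) and Cenpf (43.5%) rose, Ttk and Ndc80 (43.6% each) fell and others did not pass. The same correlation was 0.82 with shNdufa5_1, -0.06 in the libraries labelled shNdufa5_2 and, for shNdufa5_1 against shControl in PCM, -0.22. Without that trend with GC content and length, 35 of 38 members rose in SCM in shControl, against 29.3% of all genes higher, 20.5% lower and 49.7% in all, with a median of 0.48. None fell by limma, nor at an unadjusted p under 0.05. Cenpf (1.06), Ccnb1 (0.91) and Birc5 (0.84) then led. Bub1, Ttk and Ndc80 were the 3 members not called.

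**Figure D4:**
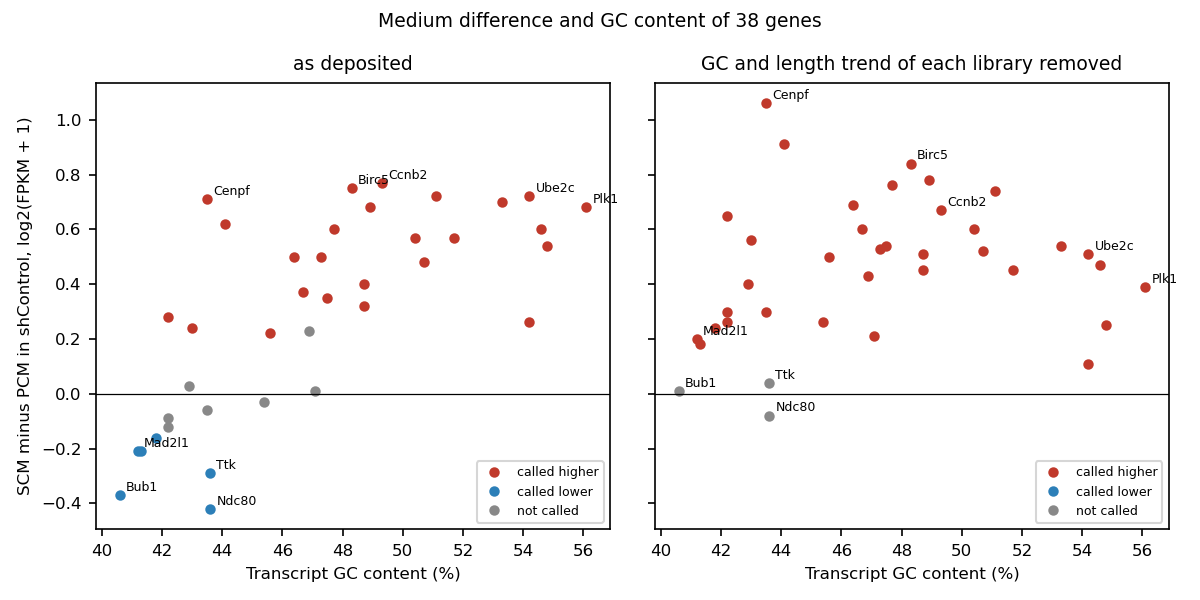
Each point is 1 of the 38 genes, with its transcript GC content (horizontal, percent) and its SCM minus PCM difference in shControl (vertical, log2(FPKM + 1)), as deposited (left) and with each library's GC and length trend removed (right); red is called higher, blue called lower and grey not called. On the left the 6 blue points all lie between 40.6% and 43.6% GC, and on the right 35 points are red; under scaling by FPKM totals the values on the left would give 1 higher and 20 lower.

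The regulators of these genes were examined from a list of 24, which holds MuvB and DREAM subunits, Rb and E2F family members, B-Myb, FoxM1 and NF-Y. In SCM in shControl 5 rose, 12 fell and 7 did not pass (median -0.17, or -0.67 under scaling by FPKM totals), where 31.7% of all genes rose and 30.2% fell. After the GC and length correction 6 were higher and 7 lower, with a median of -0.01. Mybl2, for B-Myb, had 13.2, 14.2 and 14.0 FPKM in PCM and 21.4, 21.7 and 22.8 in SCM (0.64 ± 0.04, adjusted p = 4.73e-09). Scaled by FPKM totals, its difference was 0.06 and not called. Foxm1 had 19.8, 20.0 and 19.5 in PCM and 27.2, 28.1 and 26.3 in SCM (0.44 ± 0.06), with -0.15 under scaling by FPKM totals. Lin37, a MuvB subunit, rose by 0.83 ± 0.10. In the hairpin lines Mybl2 stood at 16.6 ± 0.602 FPKM with shNdufa5_1 in SCM and 16.5 ± 0.00691 in the libraries labelled shNdufa5_2, all below the lowest shControl library in SCM. Scaled by FPKM totals, these differences from shControl were 0.02 and -0.11, neither called. The response of Mybl2 to SCM was lower for the mean of both hairpins (-0.58 ± 0.05, adjusted p = 6.39e-07), with -0.54 for shNdufa5_1 and -0.61 in the libraries labelled shNdufa5_2. Under scaling by FPKM totals these Mybl2 calls ended, with -0.01 for the mean (adjusted p = 0.944), -0.01 (adjusted p = 0.894) for shNdufa5_1 and 0.00 for the libraries labelled shNdufa5_2. Foxm1 levels in SCM did not differ detectably between genotypes (-0.05, 95% interval -0.18 to 0.09, and -0.01, -0.14 to 0.13), and its response was lower (-0.25 ± 0.08), or 0.33 higher under FPKM totals.

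With shNdufa5_1 in PCM 13 of the 24 regulators rose and 2 fell (median 0.16), where 25.6% of all genes rose and 27.1% fell. E2f8, an atypical E2F made in S phase, rose from 5.56 ± 0.0931 to 9.95 ± 1.63 FPKM (0.73 ± 0.10), and Rbl1, for the pocket protein p107, by 0.54 ± 0.08. Mybl2 (0.15 ± 0.04) and Foxm1 (0.18 ± 0.06) also rose as deposited. Under scaling by FPKM totals Mybl2 was at 0.03 (adjusted p = 0.718) and Foxm1 at 0.05, neither called, and without shNdufa5_1 replicate 2 in PCM Foxm1 was at 0.10 (adjusted p = 0.148). In the libraries labelled shNdufa5_2 in PCM, Foxm1 rose by 0.28 ± 0.06 and Mybl2 by 0.22 ± 0.04, and both turned under FPKM totals (-0.06 and -0.12).

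**Figure D5:**
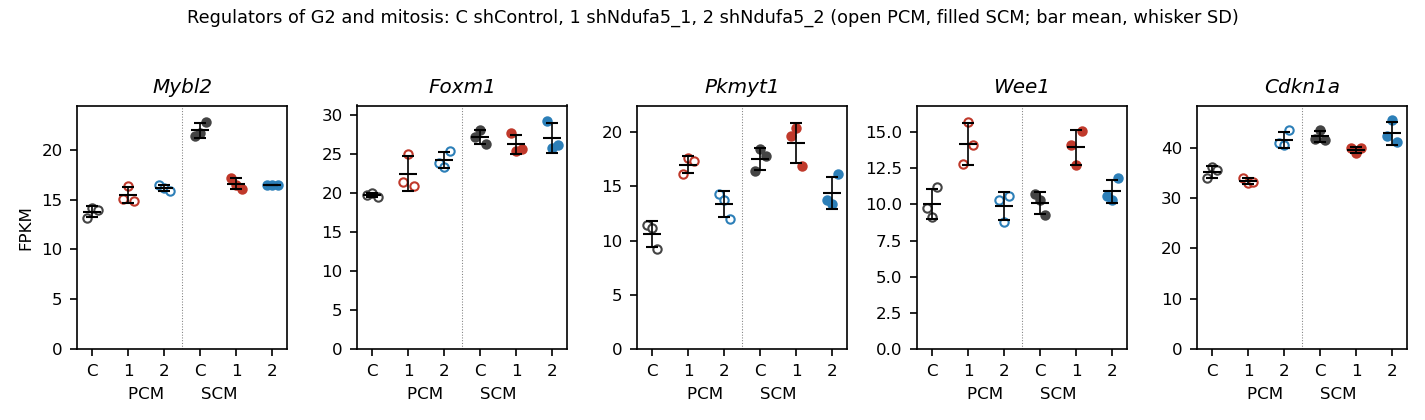
FPKM of 5 regulators in each library, with open points for PCM and filled points for SCM, C for shControl, 1 for shNdufa5_1 and 2 for the libraries labelled shNdufa5_2; the bar is the mean and the whisker the SD of 3 libraries. Mybl2 in SCM is at 21.4 FPKM or more in shControl and at or below 17.2 with either hairpin, and Wee1 is highest with shNdufa5_1 in both media. Scaled by FPKM totals, the Mybl2 differences from shControl in SCM are 0.02 (shNdufa5_1) and -0.11 (shNdufa5_2), neither called.

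Brakes on Cdk activity, a list of 16 with 15 tested, went both ways in SCM in shControl (7 higher, 4 lower, median 0.01, or -0.55 under scaling by FPKM totals). Of all genes 31.7% were higher and 30.2% lower. After the GC and length correction 6 brakes were higher and 4 lower (median 0.08), against 29.3% and 20.5% of all genes. Pkmyt1, the membrane-bound kinase that inhibits Cdk1, rose from 10.6 ± 1.23 to 17.5 ± 1.03 FPKM (0.68 ± 0.09), or was at 0.11 and not called under FPKM totals. Wee1, its nuclear counterpart, gave 0.01 ± 0.09. Cdkn1a, for p21, rose by 0.26 ± 0.04, or was at -0.34 under FPKM totals. Btg2 (-1.48 ± 0.15), an antiproliferative p53 target, and Gadd45g (-1.38 ± 0.06), a growth arrest gene, fell. With shNdufa5_1 in PCM 7 rose and 6 fell, where 25.6% of all genes rose and 27.1% fell. There Gadd45b, of the same family, fell from 48.2 ± 1.52 to 8.99 ± 0.518 FPKM (-2.30 ± 0.06), Gadd45g from 174 ± 4.24 to 56.3 ± 1.92 (-1.61 ± 0.06), while Pkmyt1 (0.64 ± 0.09) and Wee1 (0.46 ± 0.09) rose. Wee1 was also higher with this hairpin in SCM (0.43 ± 0.09). The response of Pkmyt1 to SCM was lower for the mean of both hairpins (-0.55 ± 0.11), and 0.01 under FPKM totals. Its single values were -0.53 for shNdufa5_1 and -0.57 for the libraries labelled shNdufa5_2, which stood at 0.31 against shControl in PCM and -0.26 in SCM, with -0.02 and 0.01 under FPKM totals.

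A list of 81 other mitotic genes, 80 of them tested, had 36 higher and 18 lower in SCM in shControl (median 0.06, or -0.45 under scaling by FPKM totals) and 53 higher and 2 lower with shNdufa5_1 in PCM (median 0.35, or 0.24). Of all genes 31.7% were higher and 30.2% lower in the first comparison, and 25.6% and 27.1% in the second. After the GC and length correction 41 of the list were higher and 7 lower in the first, and 52 and 2 in the second. Cdca3, a cell cycle ubiquitin ligase adaptor, rose from 11.6 ± 0.604 to 27.8 ± 0.373 FPKM in SCM (1.19 ± 0.06), and Oip5, which loads Cenpa, fell from 16.2 ± 0.888 to 8.13 ± 1.98 (-0.94 ± 0.11). With shNdufa5_1 in PCM, Ccnf, for cyclin F, rose from 12.4 ± 0.456 to 29.6 ± 0.124 (1.20 ± 0.06). Spc25, a subunit of the Ndc80 complex beside Ndc80 and Nuf2, rose from 7.77 ± 0.421 to 18.9 ± 1.30 (1.18 ± 0.07), so 3 of the complex's genes were higher with this hairpin.

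Condensin, the complex that compacts mitotic chromosomes, had 3 of 8 genes higher and 5 lower in SCM in shControl (median -0.20, or -0.74 under scaling by FPKM totals), where 31.7% of all genes were higher and 30.2% lower. After the GC and length correction 5 were higher and 1 lower (median 0.20). Ncapd2 (0.96 ± 0.05) and Ncaph2 (0.82 ± 0.04) rose, and the core subunit Smc4 fell (-0.71 ± 0.05). With shNdufa5_1 in PCM 7 of 8 rose, with Smc2 at 0.66 ± 0.06 and Smc4 at 0.53 ± 0.05. There 25.6% of all genes rose and 27.1% fell, and after the GC and length correction 5 condensin genes were higher and 1 lower. Of 16 anaphase-promoting complex genes outside the 38, 7 rose and 5 fell in SCM in shControl (median 0.17, or -0.30 under scaling by FPKM totals). Ube2s was at 0.75 ± 0.05, or 0.15 and not called under that scaling, and Cdc27 at -0.71 ± 0.08. With shNdufa5_1 in PCM 3 of the 16 rose and 4 fell. After the GC and length correction these counts were 8 and 3, and 3 and 5. The shares of all genes as deposited are those given for condensin. Of 36 S phase genes 35 were tested, and 16 rose and 9 fell in SCM in shControl (median 0.09, or -0.38 under scaling by FPKM totals), against 31.7% and 30.2% of all genes. After the GC and length correction 14 were higher and 2 lower, against 29.3% and 20.5% of all genes. With shNdufa5_1 in PCM 18 S phase genes rose and 2 fell (0.22, or 0.09 under scaling by FPKM totals), against 25.6% and 27.1% of all genes. The helicase gene Mcm2 went from 23.0 ± 0.182 to 39.5 ± 1.17 FPKM there (0.76 ± 0.04). The response of S phase genes to SCM was lower with the hairpins for 15 of 35 and higher for 2 (median -0.17, or 0.37 under that scaling), against 21.5% and 17.2% of all genes. Pold1, for the catalytic subunit of DNA polymerase delta, was at -0.70 ± 0.08, or -0.13 and not called under scaling by FPKM totals.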

How the data were processed

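The authors deposited FPKM values for 54532 mouse genes in 18 libraries. Per the submitters' processing notes, tools included STAR 2.6.1 and DESeq2, with GRCm38 (mm10) as build. No source used here gives the counter, gene lengths, denominator or use of strand, so overlapping and antisense genes are uncertain. The test was limma 3.58.1 (R 4.3.3) on log2(FPKM + 1), on which changes of low genes come out smaller: 1 coefficient per group, all 18 libraries, variances following a trend with the mean, a mean of 1 FPKM or more, 11 contrasts, two-sided, Benjamini-Hochberg adjusted over 11084 genes, called under 0.05. Fragment counts were recovered from the spacing of low values. GC and length trends were removed per library with mgcv 1.9.3 splines. The fit was tested on simulated data. The members and lists were chosen with earlier results of these data known. Genes named with values followed a rule: the called member with the largest difference in each role for SCM in shControl, up to 3 in each direction in other comparisons, up to 4 called genes per further list, and 5 regulators always; other members named for their role were chosen after their values were seen. Sequences came from RefSeq. Alternatives changed the pseudocount, filter, scaling, variance trend, groups in the fit and libraries.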

Additional observations from a re-analysis of the deposited data

Results flagged for a closer look

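The response to SCM differed between genotypes by interaction terms of the limma fit, values as deposited. Lower responses than in shControl were called for 17 members with shNdufa5_1, 20 in the libraries labelled shNdufa5_2 and 21 for the mean of both hairpins, and higher ones for 5 in the libraries labelled shNdufa5_2 and 1 for the mean. Of all genes 15.5%, 24.1% and 21.5% were called lower in these 3 comparisons. Scaling by FPKM totals turned the members' counts, with 16 higher and 1 lower for shNdufa5_1, 17 higher in the libraries labelled shNdufa5_2 and 20 higher for the mean. It also gave 6988, 7337 and 7950 of all 11084 genes higher in these 3 comparisons. Relative to all genes the members' medians were then -0.17, -0.26 and -0.20. Between the hairpins the response was lower for 12 members and higher for 9 in the libraries labelled shNdufa5_2, against 10.0% and 11.0% of all genes. With the GC and length trend removed 5 were lower and 2 higher, against 5.32% and 5.39% of all genes. Scaling by FPKM totals gave 1 lower and 4 higher, against 84 and 890 of all 11084 genes. For the mean of both hairpins the largest differences were Birc5 (-0.74), Cenpa (-0.57), Cenpf (-0.57) and Bub1 (0.24). Under scaling by FPKM totals Birc5 (-0.19), Cenpa (0.01) and Cenpf (-0.11) were not called, and Bub1 (0.01) was not called with the GC and length trend removed. Single values with shNdufa5_1 were Cenpf (-0.81), Birc5 (-0.68) and Tpx2 (-0.54), of which Birc5 (-0.17) and Tpx2 (0.00) were not called under scaling by FPKM totals. In the libraries labelled shNdufa5_2 single values were Birc5 (-0.81), Plk1 (-0.73), Ccnb2 (-0.71), Bub1 (0.42), Cenpe (0.39) and Ttk (0.39). Of these Birc5 (-0.20), Plk1 (-0.09) and Ccnb2 (-0.07) were not called under scaling by FPKM totals, and Bub1 (0.04), Cenpe (0.04) and Ttk (0.11) were not called with the GC and length trend removed. Between the hairpins single values were Cenpe (0.68), Mki67 (0.55), Cenpf (0.48), Kif2c (-0.44), Cdc20 (-0.43) and Plk1 (-0.39). Of these Cenpf (0.18) and Kif2c (-0.34) were not called with the GC and length trend removed, and Kif2c (-0.35) and Plk1 (-0.30) not under scaling by FPKM totals.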

How the results depend on the processing

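Scale was the choice that changed most, and the deposited values, which hold the median gene constant, cannot say how total RNA moved. Under scaling by FPKM totals the members called higher and lower were 1 and 20 for SCM in shControl, 7 and 5 with shNdufa5_1, 0 and 17 for the libraries labelled shNdufa5_2 against shControl in PCM and 12 and 1 in SCM. For shNdufa5_1 in SCM 0 were lower. For the responses they were 16 and 1 (shNdufa5_1), 17 and 0 (shNdufa5_2), 20 and 0 (mean) and 4 and 1 (between hairpins). Of all 11084 genes 488 were higher and 7805 lower for SCM in shControl. Against shControl the libraries labelled shNdufa5_2 had 139 and 6315 in PCM, and 4753 and 184 in SCM. For the responses, in the same order, all genes gave 6988 and 85, 7337 and 93, 7950 and 108, and 890 and 84. Medians of the members that turned were -0.22 (SCM in shControl), -0.22 and 0.14 (shNdufa5_2 in PCM and SCM), and 0.29, 0.26 and 0.30 for the responses. Minus the median of all genes under that scaling they were 0.28, 0.08 and -0.09, and -0.17, -0.26 and -0.20. Scaled by fragment totals, a setting chosen after seeing the data, 12 were lower for SCM in shControl, 4 lower in the libraries labelled shNdufa5_2 (median -0.01), 1 lower for shNdufa5_1 in SCM and 6 higher for shNdufa5_2 in SCM. The responses had 3 higher and 11 lower (shNdufa5_1), 9 higher (shNdufa5_2) and 8 higher (mean). Quantile normalization gave 1 and 2 higher for the responses of shNdufa5_1 and of the mean.

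With the GC and length trend removed 0 were lower for SCM in shControl, 1 with shNdufa5_1, and 6 were higher and 1 lower in the libraries labelled shNdufa5_2. It gave 0 lower for shNdufa5_2 in PCM, 7 lower for shNdufa5_1 in SCM and 0 higher for shNdufa5_2 in SCM. The responses had 26 lower (shNdufa5_1), 0 higher (shNdufa5_2), 0 higher (mean), and 2 higher and 5 lower between hairpins. No filter on low values gave 1 higher for shNdufa5_2 in SCM and 3 higher for its response. Fits with only the groups compared gave 1 higher for shNdufa5_2 in SCM. Replicate numbers did not pair the libraries: of 45 pairs with a shared number none correlated above 0.1 (-0.09 to 0.06). A replicate block gave 25 members higher and 6 lower for SCM in shControl, 33 higher for shNdufa5_1 in PCM and 20 lower for the mean response, and 1 in place of 2 higher for shNdufa5_2 in SCM; no other count moved by over 1.5 times.

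Leaving out each library in turn gave 22 to 26 higher and 4 to 7 lower for SCM in shControl, 15 to 18 and 7 to 10 with shNdufa5_1, and 3 to 4 and 0 to 1 in the libraries labelled shNdufa5_2. Against shControl the ranges were 31 to 33 and 0 to 0 for shNdufa5_1 in PCM, 16 to 19 and 2 to 5 for shNdufa5_2 in PCM, 22 to 25 and 2 to 5 for shNdufa5_1 in SCM, and 1 to 3 and 16 to 21 for shNdufa5_2 in SCM. For the responses they were 0 to 0 and 16 to 18 (shNdufa5_1), 3 to 5 and 18 to 21 (shNdufa5_2), 0 to 2 and 20 to 22 (mean), and 6 to 9 and 10 to 13 (between hairpins). The lowest value of 2 lower for shNdufa5_2 in PCM came without shControl replicate 3 in PCM.

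Of 3321 values of 123 named results under the alternatives 3157 kept direction and call, 136 lost the call and 28 turned. Under FPKM totals these were Bub1b (-0.19), Mki67 (-0.21), Cdkn1a (-0.34), Foxm1 (-0.15) and Ndufa5 (-0.29) for SCM in shControl, and Pkmyt1 (-0.02), Cdkn1a (-0.12), Foxm1 (-0.06) and Mybl2 (-0.12) for shNdufa5_2 in PCM. In SCM they were Ube2c (0.28), Birc5 (0.21), Cdca8 (0.10) and Mybl2 (0.02) for shNdufa5_1 and Pkmyt1 (0.01) for shNdufa5_2. Among responses they were Pkmyt1 (0.03), Cdkn1a (0.42), Mybl2 (0.00) and Foxm1 (0.34) for shNdufa5_2, and Cenpa (0.01), Anapc2 (0.10), Pkmyt1 (0.01) and Foxm1 (0.33) for the mean. Ube2c for shNdufa5_1 in SCM turned under quantile normalization (0.18) and GC and length removal (0.06), which also turned Ect2 (0.18) for SCM in shControl and Ect2 (0.05), Bub1 (0.05) and Anln (0.03) for shNdufa5_2 in PCM. The cause was not tested. Depth limits Pttg1 most, with 113 fragments in its shallowest library.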
